A study of Rattus norvegicus with 8 samples.

Results

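The expression of 10 genes of bone mineralization and of the osteocyte matrix was examined in rat osteoblast-like cells 6 h after low-level Er:YAG laser irradiation. The genes were *Alpl*, *Enpp1*, *Phospho1*, *Phex*, *Bglap*, *Sparc*, *Ibsp*, *Spp1*, *Mepe* and *Dmp1*. Their probes were found by the gene names written on the array, and the rule uses no measured value. They had 12 probes in 30 spots, out of 34912 gene names, 45598 rat probes and 58717 spots.

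Cells were released enzymatically from calvariae of Wistar rats, 3 to 5 days of age, and grown to confluency in 35-mm dishes. The medium was removed, 4 cultures were exposed to the Er:YAG laser (fluence, 3.3 J/cm2) and 4 were not. Every dish, irradiated or not, was then given osteoinduction medium, which contains ascorbic acid, β-glycerophosphate and dexamethasone, and RNA was collected at 6 h. Each culture was hybridized in 1 color to 1 array, and the cultures of each group were numbered 1 to 4. The cells are a primary mixture, and a difference in the number of cells of a type and a difference in RNA per cell cannot be told apart in such bulk samples. The median processed signal of an array ranged from 56.2 to 84.8, the number of probes well above background ranged from 26543 to 30490, and 0 spots were saturated. All 9 osteoblast markers (*Runx2*, *Sp7*, *Dlx5*, *Col1a1*, *Col1a2*, *Pth1r*, *Alpl*, *Bglap* and *Ibsp*) were well above background on all 8 arrays.

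Bone mineral forms when phosphate and calcium crystallize in and around collagen. Phosphatases on the cell surface and in matrix vesicles raise the local phosphate and remove pyrophosphate, which inhibits crystal growth, while other enzymes make pyrophosphate. Osteoblasts also secrete acidic phosphoproteins and calcium-binding proteins into the matrix, and several of these are made mainly once the cell is becoming an osteocyte buried in mineral.

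The probes were 60 bases long. A window of 30 bases is shown for the probes of the genes that differed most between cultures and for *Mepe*. The capitals mark AATAAA, the usual polyadenylation signal near the 3′ end of a message. Probes without capitals are shown by their last 30 bases, and their place in the message was not derived.
Alpl, probe A_43_P11684: acacaagacatttaAATAAAatgttccaaa
Alpl, probe A_44_P1160313: tgcaaccatcatggaacattccagatctga
Bglap, probe A_43_P15447: cagctgctccaaAATAAAgtccagatgagg
Mepe, probe A_64_P027449: ttcagacatgaaAATAAAgaggctttctct
Ibsp, probe A_44_P255216: ggctgttgatcaagtagcacacagatctat
Dmp1, probe A_42_P636281: aacgagacggcacaatgggataacttggat
AATAAA was present in 3 of the 12 probes and in 9.04% of the 45598 rat probes. Positions on the array are those of the genome build rn4. The *Alpl* probe with AATAAA lay at chr5:156501741-156501800 on the minus strand and the other *Alpl* probe at chr5:156502095-156502154, with 294 bases between them. The *Bglap* probe lay at chr2:180482313-180482372 on the minus strand. The probes of *Spp1*, *Mepe*, *Ibsp* and *Dmp1*, members of a known cluster of acidic phosphoprotein genes, lay on the minus strand within 215.2 kb of chromosome 14, from 6422382 to 6637542. Exon and UTR annotation of that build was not used here.

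Irradiated and non-irradiated cells did not differ measurably at 6 h in any of the genes that could be tested. Signals are given as quantile-normalized log2 signals of each probe, and irradiated arrays were compared with the non-irradiated array of the same replicate number. Of the 8 genes that could be tested, 0 were called by limma at an adjusted p below 0.1, with adjusted p-values of 1.00, and 0 reached an unadjusted p below 0.05. Over all 26391 probes fitted, 0% were called and 2.56% (676 probes) reached an unadjusted p below 0.05. The signal was higher after irradiation in 5 of the 8 genes and in 13328 of the 26391 probes. The median log2 difference of the 8 genes was 0.06, against 0.0015 over all probes, and it was -0.05 without replicate 1. The median absolute difference was 0.09 for the 8 genes and 0.08 over all probes. The exact sign-flip test over 4 pairs cannot give a p below 0.125, so 4 cultures per group limit what a single gene can show.

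**Figure D1:**
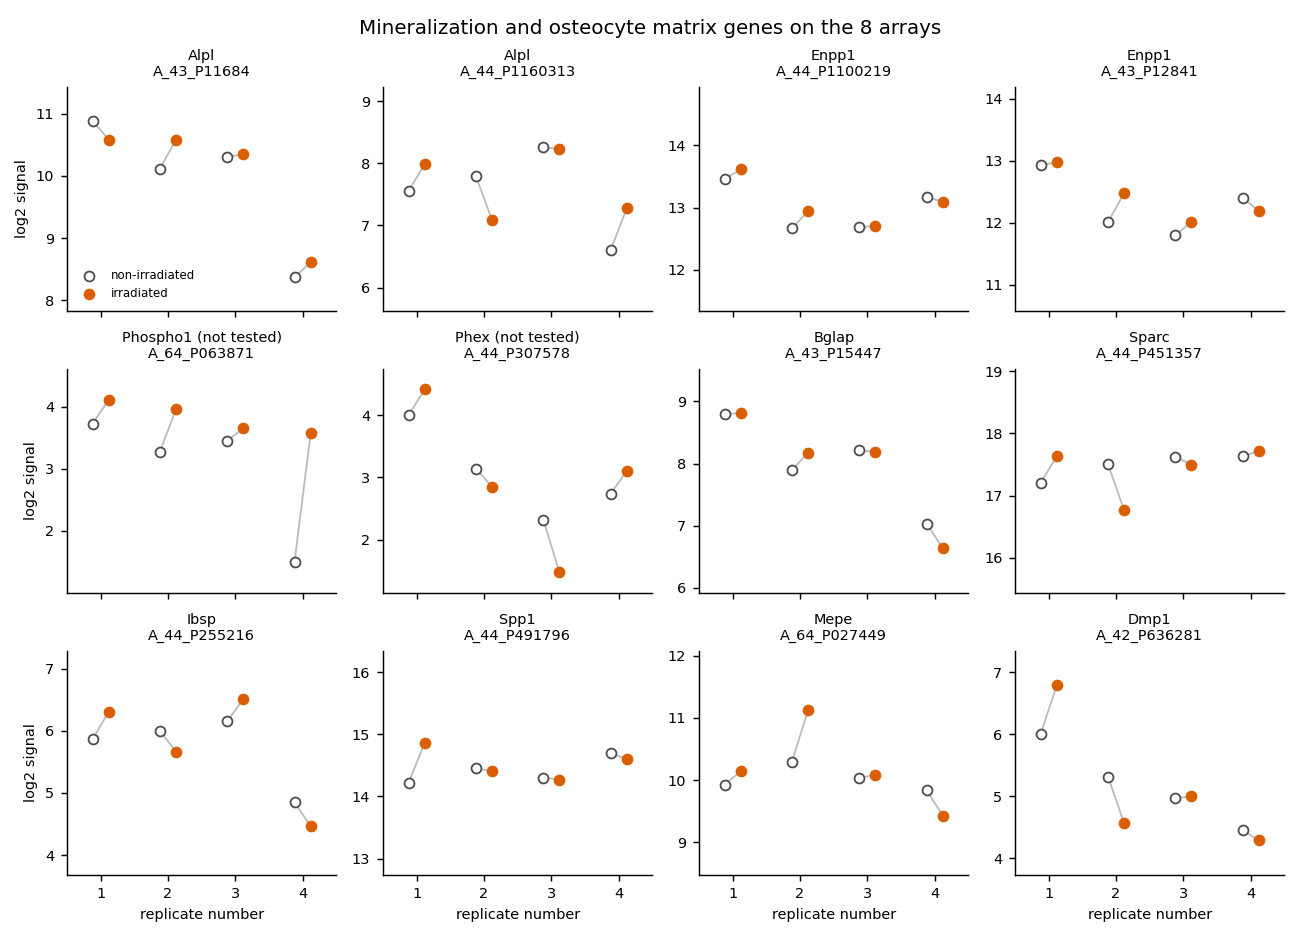
Quantile-normalized log2 signal (vertical axis, every panel spanning the same number of log2 units) of the 12 probes against the replicate number (horizontal axis). Open points are non-irradiated arrays, filled points irradiated arrays, and a line joins the arrays of a number. The points of a number lie close together for *Alpl* probe A_43_P11684 and *Bglap*, with both arrays of replicate 4 lowest, whereas *Alpl* probe A_44_P1160313, *Sparc* and *Spp1* show no such order.

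Among the enzymes, *Alpl* encodes tissue-nonspecific alkaline phosphatase, which hydrolyzes pyrophosphate and other phosphate esters. With the probe that holds AATAAA, the log2 signal of *Alpl* was 10.89, 10.11, 10.31 and 8.37 on non-irradiated replicates 1 to 4. On irradiated replicates 1 to 4 it was 10.58, 10.59, 10.35 and 8.61. Both arrays of replicate 4 were lowest in their group, and the groups overlapped throughout. Irradiated minus non-irradiated was 0.11 ± 0.16 (SE, 4 pairs) on the log2 scale, with a 95% interval of -0.27 to 0.49 and higher signal in 3 of 4 pairs.

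The other *Alpl* probe read 7.56, 7.79, 8.25 and 6.60 on the non-irradiated arrays and 7.99, 7.08, 8.23 and 7.27 on the irradiated arrays. Non-irradiated replicate 4 was again lowest of its group, but on the irradiated arrays replicate 2 was lowest. The laser difference was 0.09 (95% interval -0.49 to 0.68), and the pairs went both ways, from -0.71 in replicate 2 to 0.67 in replicate 4.

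*Enpp1* makes pyrophosphate from nucleotides and thus acts against alkaline phosphatase. The probe with the higher signal read 13.46, 12.67, 12.68 and 13.16 on non-irradiated and 13.61, 12.94, 12.71 and 13.10 on irradiated replicates 1 to 4. Replicate 1 was highest in both groups, and replicates 2 and 3 were lower than the others. The laser difference was 0.10 ± 0.12 (SE), with a 95% interval of -0.19 to 0.38. The other probe, with 1148 bases between the probes, gave 0.13 (95% interval -0.23 to 0.48), and both were higher after irradiation in 3 of 4 pairs.

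*Phospho1*, a phosphatase that releases phosphate from phosphocholine and phosphoethanolamine inside matrix vesicles, was not tested because its probe was well above background on only 1 of 4 non-irradiated and 2 of 4 irradiated arrays. Its log2 signal was 3.73, 3.27, 3.45 and 1.50 without irradiation and 4.11, 3.96, 3.65 and 3.58 with it. It was the 1 member higher on the irradiated array in 4 of 4 pairs, at signals at or near background. *Phex*, an endopeptidase of osteocytes whose loss causes phosphate wasting, was well above background only on the arrays of replicate 1 and was not tested either. It read 4.01, 3.14, 2.32 and 2.74 on non-irradiated and 4.42, 2.85, 1.48 and 3.10 on irradiated arrays.

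Among the proteins of the collagen matrix, *Bglap* encodes osteocalcin, the calcium-binding Gla protein of bone. Its log2 signal was 8.80, 7.90, 8.22 and 7.03 on non-irradiated replicates 1 to 4. On the irradiated arrays it was 8.81, 8.17, 8.19 and 6.64. Replicate 1 was highest and replicate 4 lowest in both groups. The laser difference was -0.04 ± 0.14 (SE, 4 pairs), and its 95% interval of -0.39 to 0.31 corresponds to a ratio between 0.765 and 1.24. By qPCR, a different measure, the paper reports a significant increase of *Bglap* at this fluence and time.

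*Sparc* encodes osteonectin, a collagen- and calcium-binding protein. Over its 10 spots it read 17.20, 17.50, 17.62 and 17.63 without irradiation and 17.63, 16.76, 17.50 and 17.72 with it. Irradiated replicate 2 was the lowest of the 8 arrays. The SD between spots of an array was at most 0.06, below the SD of 0.44 between irradiated arrays. The laser difference was -0.09 (95% interval -0.58 to 0.41).

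Among the acidic phosphoproteins, *Ibsp* encodes bone sialoprotein, a nucleator of mineral. Its log2 signal was 5.86, 6.00, 6.15 and 4.85 on non-irradiated replicates 1 to 4 and 6.31, 5.66, 6.51 and 4.46 on irradiated replicates 1 to 4. Replicate 4 was lowest and replicate 3 highest in both groups. The laser difference was 0.02 ± 0.19 (SE), with 2 of 4 pairs higher.

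*Spp1* encodes osteopontin, which binds mineral and limits its growth. It read 14.22, 14.45, 14.30 and 14.69 on non-irradiated arrays and 14.87, 14.41, 14.27 and 14.60 on irradiated arrays, again over 10 spots. The laser difference of 0.12 (95% interval -0.28 to 0.52) came from replicate 1, where it was 0.65, while the other 3 pairs were between -0.09 and -0.03. Without replicate 1 it was -0.06.

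*Mepe* and *Dmp1* are genes of the maturing osteocyte. *Mepe* encodes a matrix phosphoglycoprotein whose acidic peptide inhibits mineralization, and *Dmp1* a protein that nucleates mineral and is required for osteocyte maturation. *Mepe* read 9.92, 10.30, 10.03 and 9.83 on non-irradiated and 10.14, 11.13, 10.09 and 9.43 on irradiated arrays. Irradiated replicate 2 was the highest of the 8 and irradiated replicate 4 the lowest. *Mepe* had the largest laser difference of the 8 genes, 0.18 ± 0.21 (SE), with a 95% interval of -0.33 to 0.69, and without replicate 2 it was -0.04. *Dmp1* read 6.01, 5.32, 4.96 and 4.46 on non-irradiated and 6.79, 4.56, 5.00 and 4.29 on irradiated arrays. Replicate 1 was highest and replicate 4 lowest in both groups. The laser difference of *Dmp1* was -0.02 (95% interval -0.63 to 0.58), and its sign changed with the scaling, reaching 0.09 when arrays were scaled to the 75th percentile.

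**Figure D2:**
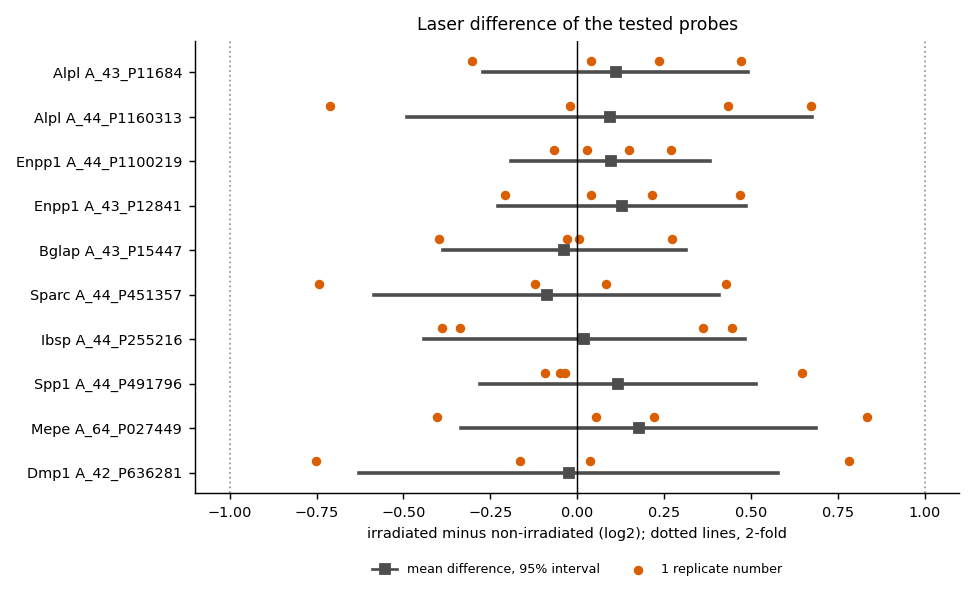
Irradiated minus non-irradiated log2 signal (horizontal axis) of the 10 tested probes (vertical axis). Squares are mean differences over the 4 replicate numbers with 95% intervals from limma, points are the differences within single replicate numbers, and dotted lines mark a 2-fold difference. All 10 intervals include 0 and lie within the dotted lines.

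No member differed by more than 2-fold after irradiation, as did 19 of all probes. The 95% intervals come from the fit with the replicate number as a block. They bound what could have been missed only if the pairing by number holds, which number 2 did not bear out. Without the block the unadjusted p (limma) was higher for every tested probe. It went from 0.505 to 0.859 for *Alpl* probe A_43_P11684 and from 0.804 to 0.942 for *Bglap*. Intervals without the block were not computed. With the block, the widest interval, that of *Dmp1*, ran from a ratio of 0.647 to one of 1.49. The highest upper bound was that of *Mepe*, at a ratio of 1.61. The groups lay in different columns of 1 slide, and an effect of the column cannot be told apart from one of the laser.

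Between replicate numbers, 5 of the 8 genes (*Alpl*, *Enpp1*, *Bglap*, *Ibsp* and *Dmp1*) differed by limma's moderated F test at an adjusted p below 0.1, against 9.15% of the 26371 probes fitted. The test sets the spread between the numbers against the spread left within pairs, over both groups. *Alpl* ranged over 2.24 log2 units between replicate means, a 4.74-fold difference, from 8.49 in replicate 4 to 10.73 in replicate 1 (limma, adjusted p = 0.020). *Bglap* ranged over 1.97, or 3.92-fold, from 6.84 in replicate 4 to 8.81 in replicate 1 (limma, adjusted p = 0.028). These ranges exceeded the largest differences within a pair, which were 0.47 for *Alpl* and 0.40 for *Bglap*.

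*Ibsp* ranged over 1.68, or 3.20-fold, and was lowest in replicate 4 and highest in replicate 3 (limma, adjusted p = 0.065). *Dmp1* ranged over 2.02, or 4.07-fold, from 4.37 in replicate 4 to 6.40 in replicate 1 (limma, adjusted p = 0.082). The size of both ranges depended on the processing. With normexp background correction they were 0.72 for *Ibsp* and 0.75 for *Dmp1*, and with the mean signal 0.81 and 0.92. With the deposited values they were 1.03 and 1.06, and with scaling to the 75th percentile 1.91 and 2.50. *Enpp1* ranged over 0.84, or 1.79-fold, with replicate 1 highest and replicate 3 lowest (limma, adjusted p = 0.095). Its other probe ranged over 1.04 and did not pass (limma, adjusted p = 0.111), and neither did the other probe of *Alpl*, which ranged over 1.31 (limma, adjusted p = 0.176). *Mepe*, *Sparc* and *Spp1*, with ranges of 1.08, 0.54 and 0.36, were not called (limma, adjusted p = 0.200, 0.507 and 0.620). The median range was 1.38 over the 8 genes and 0.56 over all tested probes.

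The calls changed when cultures were left out. Without replicate 4, 0 of the 8 genes were called by limma and 3 reached an unadjusted p below 0.05, and the range of *Alpl* was 0.41. Without replicate 1 only *Alpl* was called, and without replicate 3 *Alpl* and *Bglap*, whereas 5 were called without replicate 2. With no filter on dim probes only *Alpl* was called, and at an adjusted p below 0.05 *Alpl* and *Bglap*. The calls over the whole array moved as well, to 200 of 26371 probes without replicate 1, 9701 of 26388 without replicate 2, 482 of 26357 without replicate 3, 339 of 26356 without replicate 4 and 620 of 45560 with no filter.

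**Figure D3:**
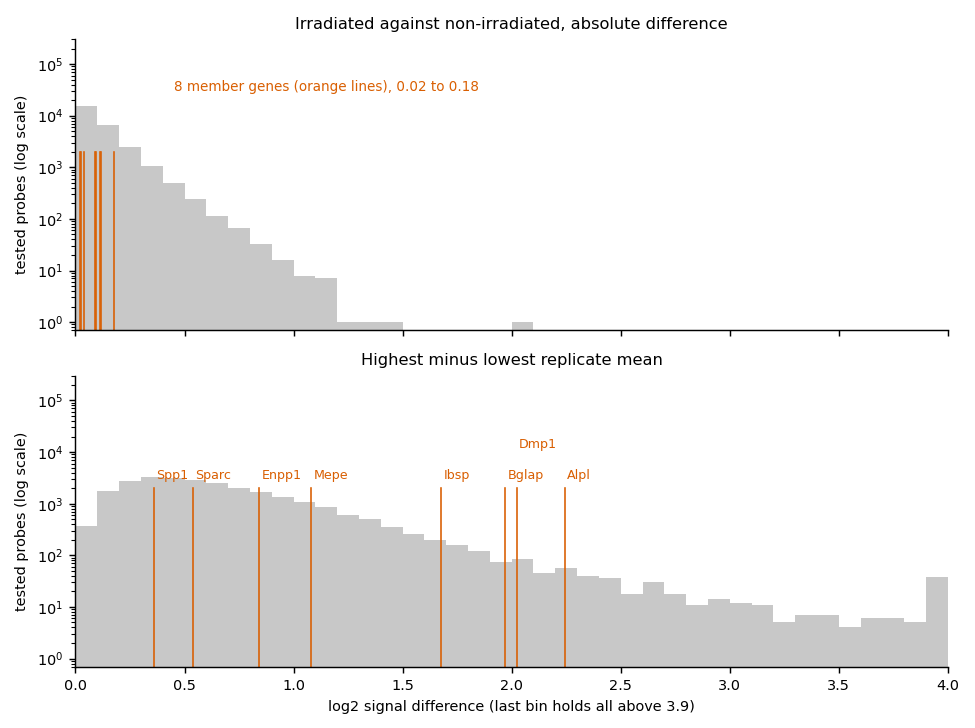
Number of tested probes (vertical axis, log scale) by absolute laser difference (upper panel) and by the range of replicate means (lower panel), both in log2 units (horizontal axis). Orange lines are the 8 tested member genes by their brighter probe. The laser differences of the members are all at most 0.18, and their replicate ranges extend from 0.36 for *Spp1* to 2.24 for *Alpl*.

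Of the 5 genes called, 4 were lowest in replicate 4 and 4 were highest in replicate 1. Among the 2412 probes called over the whole array, replicate 4 was lowest in 35.0% and replicate 1 highest in 45.6%. Replicate 4 minus the mean of replicates 1 to 3 was -2.06 without and -1.90 with irradiation for *Alpl*, -1.27 and -1.75 for *Bglap*, and -1.15 and -1.70 for *Ibsp*. Replicates 1 and 2 lay in another row of the slide than replicates 3 and 4, and the row cannot be told apart from the cultures. Before normalization, the arrays of replicate 4 had the lowest median processed signal of their groups. It was 56.2 without irradiation, against 68.8 to 72.6 on the other arrays, and 56.8 with it, against 58.1 to 84.8. They also had the fewest probes well above background in their groups, 26543 and 28173. The part of this in the low values of replicate 4 was not tested. *Enpp1* was not low in replicate 4, where its 4 values by both probes lay between 12.19 and 13.16.

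Over the 8 arrays, which are 4 pairs and hence not independent, Pearson's r of the log2 signals was 0.95 between *Alpl* and *Bglap*, 0.86 between *Bglap* and *Ibsp* and 0.85 between *Alpl* and *Ibsp*. Without replicate 4, r was 0.84 for *Alpl* and *Bglap*, 0.06 for *Bglap* and *Ibsp* and -0.36 for *Alpl* and *Ibsp*. *Bglap* and *Dmp1* were at 0.80 with and 0.80 without replicate 4. *Mepe* and *Sparc* were at -0.82 with and -0.78 without replicate 4, and both values include irradiated replicate 2. That array had both the highest *Mepe* (11.13) and the lowest *Sparc* (16.76). On the other arrays *Mepe* lay between 9.43 and 10.30 and *Sparc* between 17.20 and 17.72. As r without irradiated replicate 2 was not computed, no opposite course of the genes is concluded. *Alpl* and *Enpp1*, the enzymes that remove and make pyrophosphate, were at 0.04 over all arrays and at 0.81 without replicate 4.

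The genes outside the set with the most similar pattern to *Alpl* were *Abi3bp* (r = 0.992), *Arfgap1* (0.991) and *Tmem150c* (0.989), and to *Bglap* they were *Gpr153* (0.983), *Enox1* (0.983) and *Tnnc1* (0.981). Of 20497 genes, 463 had r above 0.9 with *Alpl* and 292 with *Bglap*.

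The 250 bases before the annotated start are shown for *Alpl*, *Bglap* and *Ibsp*, the genes that were lowest in both arrays of replicate 4 with r of at least 0.85 among them, from RefSeq on build GRCr8, each written in the direction of its gene. Capitals mark ACCACA, the core of the site bound by RUNX factors of osteoblasts, and the TATA box TATAAA, both searched on both strands.
Alpl, chr5:155289786-155290035, minus strand: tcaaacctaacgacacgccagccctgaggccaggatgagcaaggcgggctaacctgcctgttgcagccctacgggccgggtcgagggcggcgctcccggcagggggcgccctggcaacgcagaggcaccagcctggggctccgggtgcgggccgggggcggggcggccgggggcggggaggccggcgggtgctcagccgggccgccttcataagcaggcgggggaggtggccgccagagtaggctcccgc
Bglap, chr2:176137319-176137568, minus strand: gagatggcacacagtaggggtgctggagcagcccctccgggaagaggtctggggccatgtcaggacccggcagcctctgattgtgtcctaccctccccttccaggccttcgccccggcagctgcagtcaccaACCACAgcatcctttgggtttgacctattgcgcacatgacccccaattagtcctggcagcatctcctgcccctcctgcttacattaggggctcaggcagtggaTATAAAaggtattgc
Ibsp, chr14:5757243-5757492, minus strand: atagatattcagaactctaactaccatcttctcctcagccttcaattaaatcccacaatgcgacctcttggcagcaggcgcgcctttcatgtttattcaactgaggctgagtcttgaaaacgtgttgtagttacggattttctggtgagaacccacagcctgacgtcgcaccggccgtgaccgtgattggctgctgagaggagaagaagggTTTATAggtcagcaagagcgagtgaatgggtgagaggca
The *Bglap* sequence held ACCACA 118 to 113 bases before the start and TATAAA 15 to 10 bases before it. The *Ibsp* sequence held the TATA box in reverse, 39 to 34 bases before the start, and no ACCACA, and the *Alpl* sequence held neither. RefSeq sequences were found for 8 of the 10 genes, not for *Enpp1* and *Phex*. ACCACA was present in 3 of the 8 (*Bglap*, *Sparc* and *Mepe*) and in 14.5% of 33469 promoters, and the TATA box in 3 of the 8 (*Bglap*, *Ibsp* and *Spp1*) and in 12.9%.

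Other genes of mineralization were read beside these. Of 25 listed, 24 were on the array and 21 could be tested, of which 0 were called after irradiation in either direction by limma and 0 had an unadjusted p below 0.05. Between replicate numbers, 3 of the 21 were called by limma, against 9.15% of the 26371 probes fitted. *Mgp*, the matrix Gla protein that inhibits calcification, read between 14.92 and 16.00 on the arrays of replicates 1 to 3 and 13.47 and 14.06 on those of replicate 4 (adjusted p = 0.031). *Omd*, the collagen-binding proteoglycan osteomodulin, was low in replicates 1 and 4, between 11.08 and 11.86, and between 13.23 and 13.94 in replicates 2 and 3 (adjusted p = 0.030). *Mmp14*, a membrane-bound collagenase, ranged over 1.09 with replicate 1 highest (adjusted p = 0.074). The median range of the 21 genes was 0.53, close to the 0.56 of all tested probes.

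*Col1a1*, the main collagen chain of bone, lay between 17.91 and 18.29 on all 8 arrays and was not called (limma, adjusted p = 0.605). Of 6 regulators (*Runx2*, *Sp7*, *Dlx5*, *Msx2*, *Atf4* and *Pth1r*), 0 were called by limma after irradiation or between replicate numbers, with adjusted p-values for the replicate number from 0.137 to 0.537. *Runx2*, which activates osteoblast genes, read 10.38 on both arrays of replicate 4 and between 10.59 and 11.80 on the others (limma, adjusted p = 0.459). The regulators went both ways in replicate 4. Replicate 4 minus the mean of replicates 1 to 3 was -0.65 for *Runx2*, -0.44 for *Dlx5* and -0.24 for *Atf4*. It was 0.40 for *Msx2*, 0.27 for *Sp7* and 0.13 for *Pth1r*.

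Markers of other cell types moved with the replicate number too. The cartilage collagen *Col2a1* read 9.83 and 10.24 on the arrays of replicate 1 and between 14.67 and 15.88 on the others (limma, adjusted p = 0.002). *Col9a1*, also of cartilage, read 10.37 and 10.08 against 15.25 to 16.59. *Myh3*, the embryonic myosin heavy chain of muscle, was highest in replicate 1, at 11.14 and 10.73, and lowest in replicate 4, at 6.43 and 6.59 (limma, adjusted p = 0.003). *Pparg*, a regulator of fat cells, went from 9.62 and 9.38 in replicate 1 to 7.41 and 7.43 in replicate 4.

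By list, 3 of 5 tested cartilage markers, 1 of 4 muscle, 1 of 1 fat, 2 of 4 endothelial, 1 of 2 osteoclast and 0 of 2 macrophage markers were called between replicate numbers by limma. In the osteoblast list 3 of 9 were called, which were *Alpl*, *Bglap* and *Ibsp*, and in the osteocyte list 1 of 5, which was *Dmp1*. Not called were *Sox9* and *Matn1* of cartilage (limma, adjusted p = 0.184 and 0.198) and *Acta1*, *Ckm* and *Des* of muscle (0.223, 0.152 and 0.876). Neither were *Cdh5* and *Pecam1* of endothelium (0.305 and 0.474) and *Acp5* of osteoclasts (0.154). Signals of a list were summed before taking log2, so its brightest genes weigh most, such as *Pparg* in the fat list. The summed log2 level of the cartilage list was 11.89 to 12.10 in replicate 1 and 16.22 to 17.31 in the others, and that of the muscle list 8.03 to 8.06 in replicate 4 and 8.39 to 11.34 in the others. The endothelial list was at 8.66 to 8.75 in replicate 4 and 8.92 to 10.40 in the others, and the fat list at 7.61 to 7.68 against 8.43 to 9.72. The osteoclast list was at 13.07 to 13.18 in replicate 4 and 13.43 to 14.77 in the others, and *Ctsk*, the collagen-degrading cathepsin K of osteoclasts, was called by limma (adjusted p = 0.031). Of the macrophage markers, *Cd14* and *Cd68* were well above background on 8 of 8 arrays, *Adgre1* on 6, *Csf1r* on 5 and *Ptprc* on 1, and of the fat markers *Pparg* was on 8, *Fabp4* on 6, *Adipoq* on 4 and *Plin1* on 0. The part of other cell types in the replicate differences of the mineralization genes was not tested.

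**Figure D4:**
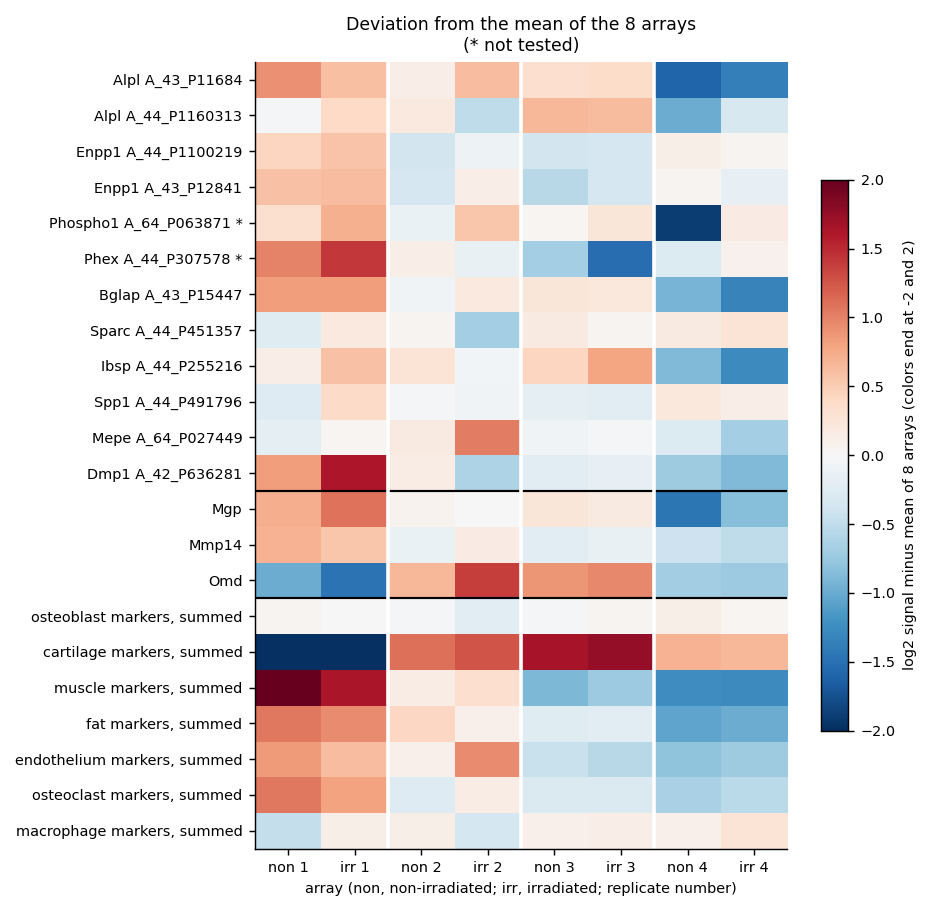
Log2 signal minus its mean over the 8 arrays (color, in log2 units, ending at -2 and 2) for the 12 member probes (top block), the 3 other mineralization genes called between replicate numbers (middle block) and the summed levels of marker lists (bottom block). Columns are the arrays, paired by replicate number. *Alpl*, *Bglap* and *Ibsp* are blue in both arrays of replicate 4, the cartilage list is blue only in replicate 1, and the osteoblast list, whose sum holds the bright *Col1a1* and *Col1a2* as well as *Alpl*, *Bglap* and *Ibsp*, is near 0 on all 8 arrays.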

How the data were processed

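Per the labels, RNA (200 ng per array) was labeled with Cy3 and 8 Agilent arrays were hybridized, 4 per group. The authors deposited spot intensities from Agilent Feature Extraction 11.0.1.1, with background and within-array trends already removed and no normalization between arrays. The authors also deposited quantile-normalized log2 values, 1 row per transcript, which served as an alternative. Groups and replicate numbers were those of the labels.

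Processed signals of rat probes were transformed to log2 and quantile normalized, with spots marked as outlying left out and spots of a probe averaged. Tested probes (26404) had over 50% of their spots well above background on every array of 1 group or both. A gene with several probes was counted by the one with the highest mean signal. Both comparisons came from 1 linear model in limma 3.58.1 (lmFit, eBayes; R 4.3.3), with irradiation and replicate number as terms, a two-sided moderated t for irradiation and a moderated F for the number, and Benjamini-Hochberg adjustment over all probes fitted. Probes lacking a value on an array could not all be fitted (26391 and 26371 remained). A call was an adjusted p below 0.1. The tests were checked on simulated data with laser shifts much larger than any member difference, so the check does not cover small effects.

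The replicate number was a block because the scanner file names give both arrays of a number the same animal. Deviations from the group means correlated within numbers 1 to 4 at 0.61, 0.06, 0.57 and 0.75 across probes. For number 2 they did not bear out the pairing, as irradiated replicate 2 correlated at 0.44 with non-irradiated replicate 1, and non-irradiated replicate 2 at 0.30 with irradiated replicate 3. Nothing else in the labels says that cultures of a group came from separate animals. Both tests take the spread left within pairs as their error, so the p-values do not measure the spread between animals. The number of cultures limits the precision.

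The genes, the other lists and the motifs were chosen with earlier results of these data known. A gene of the regulator list is not reported here. Genes carry the names written on the array, and list members were named by this rule: every gene of the set, the 3 most similar genes, and the listed genes a count refers to. Alternatives were normexp (offset 50), the mean signal, scaling by the 75th percentile, other filters on dim probes, the deposited log2 values, outlying spots kept, each replicate left out, no or a random block, no irradiation term, a trended robust variance prior, and averaged probes. Another 2 were chosen after seeing the data, leaving out irradiated replicate 2 and an adjusted p below 0.05.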

Additional observations from a re-analysis of the deposited data

Results flagged for a closer look

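For *Alpl* probe A_43_P11684, irradiated replicate 4 (8.61) stood apart from the other irradiated arrays, which lay between 10.35 and 10.59. Among the summed log2 levels of the lists, non-irradiated replicate 1 of the macrophage list (9.68) stood apart from 10.25 to 10.26, irradiated replicate 2 of the osteoblast list (18.69) from 18.93 to 18.97, and non-irradiated replicate 1 of the other mineralization genes (19.54) from 19.34 to 19.37. In each case 1 array was far from the other 3 of its group relative to their whole range. This was so in 4 of the 44 groups of arrays examined, of which 24 belonged to the member probes and held 1 case, and chance alone gives about 5% of groups.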

How the results depend on the processing

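After irradiation, 0 of the tested genes were called by limma under every alternative run, also with no replicate block, where the pairing by number was ignored, and with a random block. The sign of a laser difference, none of which was called, changed in 20 of 157 values. For *Dmp1* it became 0.094 with scaling to the 75th percentile, 0.049 with normexp, 0.043 with the mean signal and 0.075 with the deposited values, and for *Ibsp* -0.044 with the deposited values. With a replicate number or irradiated replicate 2 left out, the difference was between -0.0096 and 0.249 for *Alpl* probe A_43_P11684, -0.099 and 0.362 for *Alpl* probe A_44_P1160313, -0.141 and 0.083 for *Bglap*, and -0.260 and 0.131 for *Sparc*. It was between -0.121 and 0.158 for *Ibsp*, -0.058 and 0.188 for *Spp1*, -0.043 and 0.370 for *Mepe*, and -0.293 and 0.218 for *Dmp1*. Between replicate numbers, 5 genes were called, against 1 with no filter on dim probes, 2 at an adjusted p below 0.05, and 0 to 5 with 1 number left out. The other alternatives gave 5, and the deposited values 4 of 7, where both *Alpl* probes stand in 1 row that was not counted among the 7 and was itself called. The causes were not tested. All probes called numbered 2412, against 3686 with either the 75th percentile or normexp, 3786 with the mean signal, 3675 with the deposited values, 5009 with no irradiation term, 7861 without irradiated replicate 2, 620 with no filter and 863 at the stricter threshold. *Phospho1* and *Phex*, at or near background, were limited by signal.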
